A study of Homo sapiens with 12 samples.

Results

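Large spheroids of AU565 cells were compared with AU565 monolayers in 6 RNA sequencing libraries, 3 of each format, out of the 12 libraries and 4 formats of the series. AU565 is an established human breast carcinoma line of epithelial origin with an amplified ERBB2 (HER2) gene, labelled WT here. The libraries were chosen by the condition given in their labels alone, and all 15175 genes that passed a filter on low counts were tested. The other 6 libraries, of small spheroids and capsules, share the estimate of the spread, and the small spheroids are used below where spheroid size is at issue. Both formats carry the same treatment label: 5% matrigel, a basement membrane extract, after trastuzumab, an antibody against the HER2 receptor, and 96 h of incubation before the RNA was taken. The dose of the antibody is not given in the labels and no library without it was used here, so nothing below measures its effect. The treatment text names liquid overlay for the monolayer libraries too. Nothing in the labels makes the replicates independent cultures, and each p-value is therefore relative to a spread between libraries that could be purely technical.

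In liquid overlay, cells that cannot attach to the dish gather into aggregates, and cells inside an aggregate receive oxygen and nutrients by diffusion from its surface. Large spheroids are therefore widely used as a culture model of the gradients in a tumour. When oxygen is plentiful, prolyl hydroxylases of the EGLN family mark the alpha subunits of hypoxia-inducible factor (HIF) for destruction by the VHL ligase, and when it is scarce the subunits persist, pair with ARNT and bind DNA sites with the core ACGTG. Cell division in culture follows the supply of growth factors, nutrients and anchorage, and its mitotic genes are known for promoters with CCAAT boxes and a cell cycle homology region (TTTGAA or TTCGAA).

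Depth was 17216660, 24729250 and 21116229 counts in monolayer 1, 2 and 3, against 16962684, 19596772 and 17298633 in large spheroid. A principal component analysis of the 6 libraries put 78.2% of the variance on an axis between the formats. The next axis, with 8.9%, set replicate 3 of both formats apart from replicates 1 and 2. Markers of breast luminal epithelium summed to 15800, 15800 and 17300 CPM (counts scaled to library size, with TMM factors) in monolayer and to 16200, 15500 and 15200 in large spheroid, with all 13 genes present, 6 of them called higher and 5 lower (KRT8, KRT18, GATA3, TFAP2B and ERBB2). Markers of other cell types were also read. The 8 melanocyte markers in the table summed to 80.1, 127 and 59.2 CPM in monolayer and 25.8, 32.2 and 23.6 in large spheroid, with none at 0 in any of the 6 libraries, and 11 mesenchymal markers to 138, 163 and 89.7 against 76.8, 102 and 56.6, with 1 at 0 in large spheroid 3. The 8 cardiac muscle markers summed to 213, 211 and 24.6 CPM in monolayer and 76.3, 63.9 and 15.6 in large spheroid, with 2 of them at 0 in replicate 3 of either format. Endothelial markers (7 genes) lay between 28.6 and 39.6 CPM and leukocyte markers (5 genes) between 54.7 and 62.5 in the 6 libraries, sums that hold members called in opposite directions. Of the endothelial markers the VEGF receptor KDR rose from 0.303 ± 0.29 to 8.62 ± 1.36 CPM, and EGFL7 and ERG fell by 0.61 and 1.09 on the log2 scale. VWF was called higher (0.76) and CDH5 lower (-0.51), and the calls of both ended without monolayer 1, without monolayer 2 or without large spheroid 3, and also without large spheroid 1 (VWF) or 2 (CDH5). Of the leukocyte markers CD68, a lysosomal glycoprotein of macrophages, rose from 36.5 ± 2.6 to 52 ± 1.89 CPM, and the macrophage growth factor receptor CSF1R fell from 20.01 ± 2.47 to 3.24 ± 0.214 CPM. The part of such markers' cells in the results was not tested. The libraries are of whole cultures, so fewer cells in a given state and less RNA per cell cannot be told apart.

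Most genes differed between the formats by little or not detectably. The test called 8669 of 15175 genes at adjusted p below 0.05, which is 57.1%, with 4354 (28.7%) higher and 4315 (28.4%) lower in large spheroid. Any count of members below is to be read against these shares, and a list's median log2 fold change against the -0.002 of all genes. Of the called genes 3594 changed by less than 1.5-fold, 1466 were at least 2-fold higher and 1208 at least 2-fold lower, and 356 and 323 at least 4-fold. The 3 libraries of one format did not overlap the 3 of the other in 10189 genes (67.1%), while 236 called genes did overlap. Levels are given as CPM per library. CPM is not scaled by transcript length, so levels are compared between formats and not between genes, and fold changes are log2 values, large spheroid minus monolayer, with their SE.

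**Figure D1:**
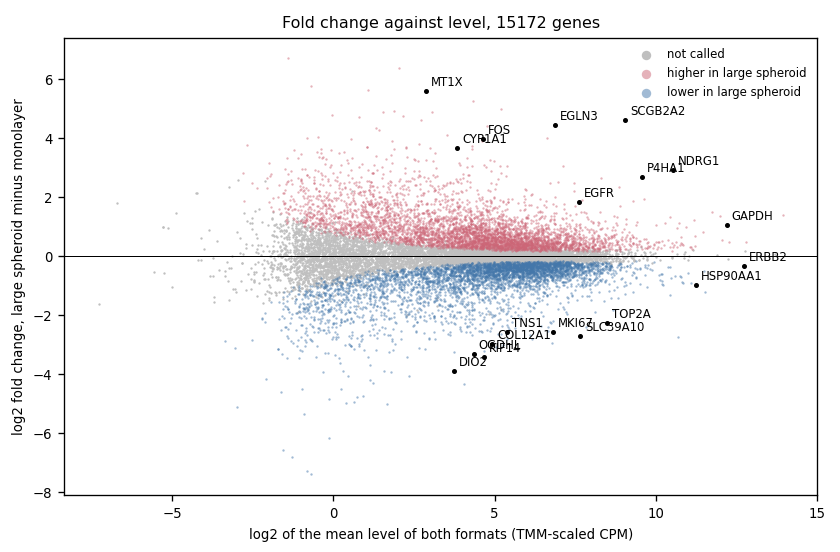
Log2 fold change of each gene (vertical axis, large spheroid minus monolayer) against the log2 of its mean level over both formats (horizontal axis, TMM-scaled CPM); each point is a gene, and 3 genes with 0 counts in all 6 libraries are not drawn. Called genes lie on both sides in like numbers, 4354 higher and 4315 lower, and the labelled genes span the range of levels.

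**Figure D2:**
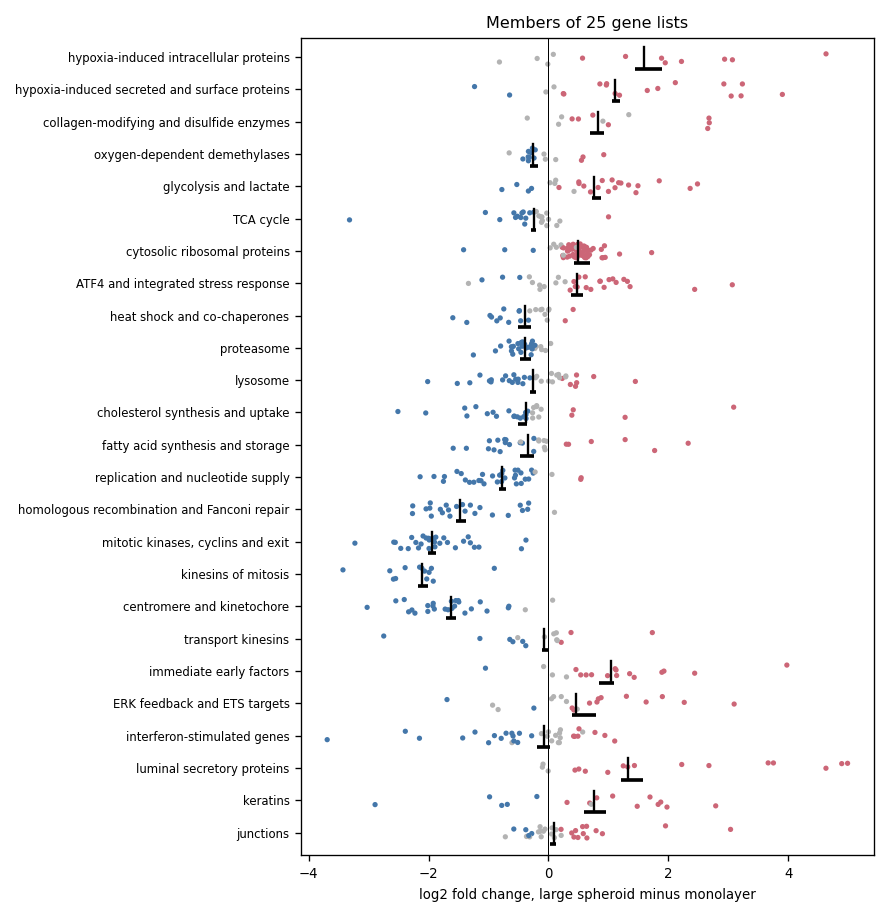
Log2 fold change (horizontal axis, large spheroid minus monolayer) of the tested members of 25 gene lists; red points are higher, blue lower and grey not called, the upright line is the list's median and the bar beneath it the range of that median over the alternative settings. The mitotic, kinesin and kinetochore lists lie wholly or nearly wholly on the left, the hypoxia, glycolysis and luminal secretory lists mostly on the right.

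The oxygen-sensing enzymes EGLN3 and EGLN1 rose, while the HIF subunits EPAS1 and HIF1A fell. EGLN3, a HIF prolyl hydroxylase that is itself a HIF target (chromosome 14, 33924227 to 33951074), stood at 10.9, 9.31 and 10.4 CPM in monolayer 1, 2 and 3 and 212, 216 and 239.5 in large spheroid 1, 2 and 3. The formats lay far apart (log2 difference 4.45 ± 0.16, adjusted p = 1.37e-12). EGLN1, the main oxygen-sensing hydroxylase, stood at 49.4, 49.3 and 49.2 CPM in monolayer 1, 2 and 3 and 127, 124 and 130.00 in large spheroid 1, 2 and 3 (log2 difference 1.36 ± 0.09, adjusted p = 1.54e-09). The 3 libraries of one format did not overlap the other for either enzyme. EPAS1, which encodes HIF-2 alpha, fell from 562 ± 3.25 to 212 ± 6.3 CPM (log2 difference -1.41 ± 0.08, adjusted p = 4.21e-10), and HIF1A fell with it (log2 difference -0.72 ± 0.16, adjusted p = 0.001). ARNT, the constant partner, was slightly lower (-0.37), and its neural relative ARNT2 rose from 1.37 ± 0.245 to 5.73 ± 0.647 CPM. VHL (0.07) and the asparaginyl hydroxylase HIF1AN (0.17) did not pass, and EGLN2 fell at a low level, from 1.48 ± 0.137 to 0.676 ± 0.143 CPM. The messages say nothing of the HIF proteins, which are controlled by degradation.

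Among secreted and surface proteins known to be induced by low oxygen, 15 of 19 tested members were higher and 2 lower, with a median log2 fold change of 1.11. The vasodilator peptide ADM stood at 9.12, 8.58 and 9.46 CPM in monolayer 1, 2 and 3 and 68.8, 81.2 and 74.4 in large spheroid 1, 2 and 3, an 8.27-fold rise (log2 difference 3.05 ± 0.14, adjusted p = 2.13e-11). VEGFA, the main angiogenic ligand (chromosome 6, 43770211 to 43786487), stood at 170.0, 172 and 159.7 CPM in monolayer 1, 2 and 3 and 393, 389 and 302 in large spheroid 1, 2 and 3, and large spheroid 3 was the lowest of its format although still above every monolayer library (log2 difference 1.11 ± 0.10, adjusted p = 1e-07). VEGFB rose too (0.86, and 0.41 after a correction for the GC content and length of genes), while the related placental growth factor PGF fell from 1.94 ± 0.497 to 0.807 ± 0.305 CPM (log2 difference -1.23 ± 0.30, adjusted p = 0.00203). Stanniocalcins STC1 and STC2, the growth factor carrier IGFBP3 and the vasoconstrictor EDN1 were all higher, by 1.65, 1.82, 3.90 and 0.97. ANGPTL4 (0.09), often listed as a HIF target, did not pass, at a mean of 0.864 CPM in large spheroid.

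On the cell surface the glucose and acid handling genes rose unequally. The high-affinity glucose transporter SLC2A3 stood at 1.93, 2.08 and 0.964 CPM in monolayer 1, 2 and 3 and 16, 17.8 and 12.6 in large spheroid 1, 2 and 3 (log2 difference 3.21 ± 0.22, adjusted p = 2.79e-09). The general transporter SLC2A1 stood at 145, 146 and 173 CPM in monolayer 1, 2 and 3 and 343, 343 and 369.9 in large spheroid 1, 2 and 3 (log2 difference 1.19 ± 0.10, adjusted p = 4.07e-08). Carbonic anhydrase CA9, which acidifies the outside of hypoxic cells, rose from 1.16 ± 0.236 to 11.1 ± 1.65 CPM and its relative CA12 from 40.8 ± 2.56 to 79.96 ± 3.25 CPM. The lactate exporter SLC16A3 changed little (log2 difference 0.26 ± 0.09, adjusted p = 0.0193), and its call ended with the GC and length correction and with any 1 of monolayer 1, monolayer 2 or large spheroid 1 left out. TFRC, the transferrin receptor for iron uptake and a reported HIF target, fell from 1342 ± 92 to 856 ± 89.5 CPM (log2 difference -0.65 ± 0.14, adjusted p = 0.000755).

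Of 12 tested intracellular proteins of the hypoxia response 8 were higher and none lower, with a median of 1.59, while the remaining 4 did not pass. NDRG1, a stress-response protein, rose from an already high level, from 339.7 ± 16.1 to 2604 ± 73.9 CPM (log2 difference 2.94 ± 0.12, adjusted p = 8.54e-12). BHLHE40, a transcriptional repressor that also damps the circadian clock, stood at 30.5, 27.9 and 29.9 CPM in monolayer 1, 2 and 3 and 236, 251 and 252 in large spheroid 1, 2 and 3 (log2 difference 3.07 ± 0.10, adjusted p = 9.22e-13). ANKRD37, a small ankyrin-repeat HIF target, rose from 0.52 ± 0.184 to 12.7 ± 0.754 CPM (log2 difference 4.63 ± 0.22, adjusted p = 3.23e-11). DDIT4, which restrains mTORC1, rose 3.7-fold to 987 CPM, and MXI1, a repressor that competes with MYC for MAX, 3.86-fold to 74.4. MIR210HG, the host transcript of the hypoxia-induced microRNA miR-210, was among the 15 strongest rises, from 0.822 ± 0.139 to 11.7 ± 1.59 CPM (log2 difference 3.80 ± 0.24, adjusted p = 1.05e-09).

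Collagen-modifying and disulfide enzymes and demethylases, most of them oxygen-dependent, did not move as a class. Collagen-modifying and disulfide enzymes had 7 of 12 members higher and none lower, 4 of 7 in the hydroxylase group and 3 of 5 oxidases. P4HA1, the catalytic subunit of collagen prolyl hydroxylase, stood at 208, 199 and 206 CPM in monolayer 1, 2 and 3 and 1271, 1354 and 1308 in large spheroid 1, 2 and 3 (log2 difference 2.68 ± 0.11, adjusted p = 8.42e-12), and its partner subunit P4HB rose only by 0.39. The endoplasmic reticulum oxidase ERO1A had the smallest adjusted p of all genes, at 86.3, 87.9 and 83.8 CPM in monolayer 1, 2 and 3 and 519, 559.6 and 549 in large spheroid 1, 2 and 3 (log2 difference 2.66 ± 0.07, adjusted p = 2.48e-13). Its paralog ERO1B did not pass (-0.35). The matrix cross-linking oxidase LOXL2 rose from 2.4 ± 0.767 to 15.4 ± 0.526 CPM. Among histone and DNA demethylases, by contrast, 9 of 16 were lower and 3 higher. KDM3A, the demethylase best known as a HIF target, rose from 57.9 ± 1.12 to 109.7 ± 6.39 CPM (log2 difference 0.92 ± 0.08, adjusted p = 2.14e-08), with KDM4B (0.58) and KDM7A (0.55) beside it, while KDM4A and the DNA demethylase TET2 fell by small amounts (-0.34 and -0.43).

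The stretches upstream of 4 hypoxia and glycolysis genes are shown because their genes rose together and hold the HIF core in this window. Sequences are from RefSeq on build GRCh38.p14, written 5′ to 3′ on the gene's strand, with each ACGTG or its reverse complement CACGT in capitals (CACGTG is an overlap of the 2).
CA9 (chr9:35673828-35673927, plus strand): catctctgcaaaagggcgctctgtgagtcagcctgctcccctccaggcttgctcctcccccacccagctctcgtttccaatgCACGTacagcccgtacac
ANKRD37 (chr4:185396641-185396740, plus strand): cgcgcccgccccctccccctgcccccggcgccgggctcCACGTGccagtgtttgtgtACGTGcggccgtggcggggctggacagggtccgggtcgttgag
PGK1 (chrX:78104008-78104107, plus strand): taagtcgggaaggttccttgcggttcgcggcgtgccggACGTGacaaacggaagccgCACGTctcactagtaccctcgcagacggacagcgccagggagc
LDHA (chr11:18394363-18394502, plus strand): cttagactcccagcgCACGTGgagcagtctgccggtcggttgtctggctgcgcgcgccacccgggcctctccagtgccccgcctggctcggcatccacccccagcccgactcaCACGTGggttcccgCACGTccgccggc
The hypoxia set here joined the HIF, secreted and surface, intracellular and collagen-modifying lists with BNIP3 and BNIP3L. Demethylases and the other mitophagy and autophagy genes were left out of it. In the 250 bases before the start, 17 of its 43 members that matched the RefSeq promoter table held ACGTG on either strand (39.5%). Of 25 glycolysis members 10 held it too (40.0%). Among the 27305 promoters listed by RefSeq, 18.7% held it, and of the 11671 belonging to tested genes 23.1%. EGLN3 and ADM rose strongly and hold no match in this window. A match is a description of letters, not of binding.

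**Figure D3:**
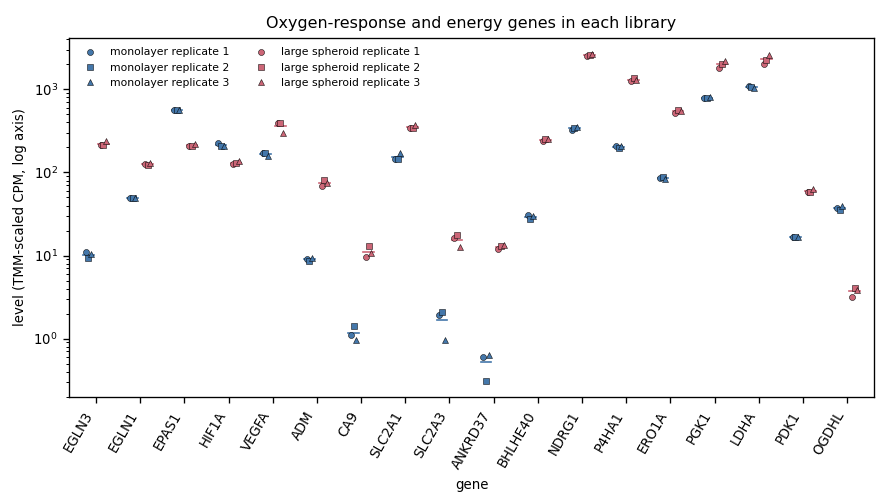
Level of 18 oxygen-response and energy genes in each library (vertical axis, TMM-scaled CPM, log axis; blue monolayer, red large spheroid, symbols for replicates 1 to 3, short lines the means). For each gene the 3 libraries of one format lie together and apart from the other format, with EPAS1, HIF1A and OGDHL lower in large spheroid and the other 15 higher.

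Glycolysis, which yields ATP without oxygen, had 14 of 17 enzymes higher and 1 lower. PGK1, the first ATP-yielding step, stood at 789, 785 and 812 CPM in monolayer 1, 2 and 3 and 1804, 2014 and 2208 in large spheroid 1, 2 and 3 (log2 difference 1.34 ± 0.10, adjusted p = 5.08e-09). Aldolase C (ALDOC) had the largest rise of the enzymes, from 31.5 ± 1.27 to 177 ± 7.04 CPM, while the major isoform ALDOA rose 2.81-fold to 5064 CPM. LDHA, which turns pyruvate into lactate, rose from 1062 ± 26.5 to 2293 ± 286 CPM and LDHB, the isoform favoured by oxidative tissue, fell from 436 ± 15.2 to 345 ± 43.2 CPM, a call that ended without large spheroid 1. Hexokinase 2 (HK2) rose by 0.70 and HK1 did not pass (0.11). At the branch into mitochondria, the pyruvate dehydrogenase kinases PDK1 and PDK4, which switch the complex off, rose from 16.6 ± 0.156 to 59.9 ± 2.15 CPM and from 2.7 ± 0.506 to 13.8 ± 0.896 CPM, whereas PDK2 fell (-0.53) and PDK3 did not pass (0.03). The bifunctional regulators PFKFB3 and PFKFB4 rose by 1.17 and 1.21 and TIGAR, which opposes them, fell by 0.78 on the log2 scale.

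The side routes of glucose split. Glycogen phosphorylase PYGB and the phosphoglucomutase PGM1 rose by 0.75 and 0.78, and the muscle-type glycogen synthase GYS1 fell from 97.1 ± 6.91 to 56.4 ± 2.88 CPM. In the pentose phosphate pathway, TKT, a transketolase of the non-oxidative branch, fell from 1421 ± 47.8 to 809.7 ± 42.5 CPM (log2 difference -0.81 ± 0.10, adjusted p = 1.8e-06), and PGD of the oxidative branch rose by 0.45.

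TCA cycle genes were lower in 13 of 25 cases and 1 higher (median -0.24). OGDHL, a 2-oxoglutarate dehydrogenase-like subunit, was the exception in size, at 36.9, 34.9 and 39.4 CPM in monolayer 1, 2 and 3 and 3.19, 4.11 and 3.79 in large spheroid 1, 2 and 3 (log2 difference -3.32 ± 0.12, adjusted p = 2.32e-12), while its widely expressed relative OGDH fell by 0.55 on the log2 scale. Pyruvate carboxylase PC, which refills the cycle, fell from 204 ± 13.9 to 98.5 ± 1.63 CPM (log2 difference -1.05 ± 0.08, adjusted p = 1.68e-08). The one riser was IDH2, the mitochondrial NADP-dependent isocitrate dehydrogenase, from 149 ± 3.67 to 298 ± 6.19 CPM, and its cytosolic counterpart IDH1 fell by 0.52. Nuclear-encoded subunits of the respiratory chain were divided, with 17 higher, 15 lower and 42 of 74 not passing, a median near 0 whose sign changed between settings. NDUFA4L2, a HIF-responsive relative of a respiratory subunit, rose from 0.47 ± 0.235 to 2.78 ± 0.392 CPM (log2 difference 2.52 ± 0.39, adjusted p = 3.07e-05), and NDUFS3 and NDUFS1 of the complex I core fell by 1.20 and 0.70. Of 13 mitochondrially encoded mRNAs 7 were lower, ND2 the most (log2 difference -1.22 ± 0.08, adjusted p = 1.52e-09), and ND5 rose (0.55). ND6, on the other strand from ND5, also rose (1.13). The strand setting of the counting is not given, so reads of the 2 strands may not have been told apart.

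Cytosolic ribosomal protein genes rose as a body, 58 of 67 with 3 lower, by a small median of 0.50. RPL19, of the large subunit, stood at 5920.2, 6139 and 5683 CPM in monolayer 1, 2 and 3 and 7617, 7849 and 9131 in large spheroid 1, 2 and 3, and the formats did not overlap. RPS14, of the small subunit, rose from 1368 ± 42.4 to 2143 ± 188 CPM. Many ribosomal protein genes have near-identical copies elsewhere in the genome, so single values such as the fall of RPS26 (from 37.9 ± 2.72 to 14.2 ± 0.741 CPM) are uncertain. Of 23 nucleolar and polymerase I factors 9 were higher, among them GNL3 (nucleostemin, from 175 ± 5.77 to 311 ± 4.78 CPM) and the snoRNP pseudouridine synthase DKC1 (0.67), and 1 was lower, UTP20. MYC, the growth regulator, rose from 100.4 ± 5.57 to 271 ± 12.2 CPM (log2 difference 1.43 ± 0.10, adjusted p = 5.06e-09).

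Genes known from the response to amino acid shortage and related stress were higher in part. Of 31 genes of the integrated stress response, among them the factor ATF4 and its targets, 19 were higher and 3 lower. The stress-induced repressor ATF3 rose from 10.2 ± 0.213 to 55.1 ± 1.08 CPM (log2 difference 2.44 ± 0.22, adjusted p = 5.44e-08), the pseudokinase TRIB3 from 234 ± 11.7 to 601 ± 8.86 CPM and DDIT3 (CHOP) from 21.1 ± 2.81 to 52.8 ± 2.97 CPM. The lipoprotein receptor VLDLR had the largest rise of the list, from 7.68 ± 1.05 to 64.8 ± 0.911 CPM (log2 difference 3.07 ± 0.12, adjusted p = 4.37e-12). Of the metabolic members, the cystathionine beta-synthase CBS (1.26) and the proline synthesis enzyme PYCR1 (1.13) rose, and the next transsulfuration enzyme CTH (-1.11) and the phosphoserine phosphatase PSPH (-0.77) fell. Of 20 cytosolic aminoacyl-tRNA synthetases, 10 were higher, led by AARS1 (from 183 ± 20.2 to 413 ± 3.34 CPM), and 3 lower, led by TARS1 (from 306 ± 5.65 to 178 ± 14.6 CPM).

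Protein folding genes were read by compartment. In the endoplasmic reticulum 11 of 26 were higher and 5 lower. The chaperone HSPA5 (BiP) stood at 643, 663 and 693 CPM in monolayer 1, 2 and 3 and 1360.0, 1419.5 and 1338 in large spheroid 1, 2 and 3 (log2 difference 1.04 ± 0.08, adjusted p = 4.74e-09), while the factor XBP1 fell from 1416 ± 114 to 934 ± 16.9 CPM (log2 difference -0.60 ± 0.08, adjusted p = 5.29e-06). The splice form of XBP1 was not measured here. In the cytosol 12 of 22 were lower and 2 higher. The inducible chaperone HSP90AA1 and the constitutive HSPA8 fell from 3237 ± 82 to 1646 ± 163 CPM and from 2317 ± 7.64 to 1275 ± 90.6 CPM, HSPH1 fell from 338 ± 8.54 to 131 ± 9.83 CPM and the co-chaperone DNAJB4 from 29.4 ± 1.78 to 9.71 ± 1.53 CPM. HSPA1A and HSPA1B are near-identical copies, and both were lower (-0.95 and -0.75). HSF1, the factor that drives these genes, was itself slightly higher (0.41).

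Degradation genes were lower in 2 systems. None of 31 proteasome subunits was higher and 25 were lower, with a narrow median of -0.40. PSMD1, a large subunit of the regulatory particle, fell from 132 ± 6.19 to 55.4 ± 3.76 CPM (log2 difference -1.25 ± 0.11, adjusted p = 3.76e-08) and PSMD12 by 0.88. Among lysosomal genes 12 of 17 membrane proteins and proton pump subunits were lower and 1 higher. The calcium channel MCOLN1 fell from 22.9 ± 1.43 to 7.98 ± 1.75 CPM and the pump subunit ATP6V1H by 0.96. The hydrolases were mixed: CTSA fell by 1.14, whereas GAA, which breaks down glycogen, rose from 61.6 ± 5.19 to 168 ± 12.1 CPM (log2 difference 1.45 ± 0.11, adjusted p = 8.01e-09). Mitophagy and autophagy genes had a median whose sign changed between settings. In that list the mitochondrial receptors BNIP3 and BNIP3L, both HIF targets, rose from 102 ± 1.09 to 191 ± 17.7 CPM and from 37.1 ± 2.41 to 90.9 ± 5.16 CPM, MAP1LC3A rose from 9.07 ± 0.505 to 50.4 ± 8.76 CPM, and GABARAPL1 fell by 0.76.

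Antioxidant and metal response genes did not share a direction. Of 20 NRF2 targets 5 were higher and 8 lower, with TXNRD1 down from 1520.1 ± 53.7 to 839 ± 33.4 CPM and GCLC up from 52 ± 3.87 to 89.3 ± 0.622 CPM. The metallothioneins MT1X and MT2A, which bind zinc and copper, were the steepest of the small lists. MT1X stood at 0.276, 0.385 and 0.184 CPM in monolayer 1, 2 and 3 and 14.8, 13.6 and 14.6 in large spheroid 1, 2 and 3 (log2 difference 5.60 ± 0.24, adjusted p = 1.24e-11), the highest fold among genes that met the naming rule, and MT2A at 8.79, 10.5 and 8.26 CPM in monolayer 1, 2 and 3 and 69.5, 58.6 and 65.4 in large spheroid 1, 2 and 3 (log2 difference 2.81 ± 0.11, adjusted p = 7.12e-12). Metallothionein genes resemble each other closely, so the counting could share reads among them. SLC39A10, a zinc importer, fell in the other direction, from 347 ± 25.7 to 53.5 ± 2.04 CPM (log2 difference -2.70 ± 0.15, adjusted p = 1.92e-10).

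Lipid synthesis genes were mostly lower. Of 21 cholesterol synthesis enzymes 15 were lower and 1 higher. Farnesyl diphosphate synthase FDPS fell from 304 ± 15.1 to 118 ± 1.33 CPM, ACAT2 (cytosolic acetyl-CoA acetyltransferase) from 41 ± 0.476 to 9.92 ± 1.01 CPM and the isomerase IDI1 from 76.5 ± 3.22 to 33 ± 2.61 CPM. FASN and SCD, of fatty acid synthesis and desaturation, fell from 2854 ± 269.9 to 1521 ± 89.7 CPM and from 1600.1 ± 47 to 808 ± 44.2 CPM. Of 15 genes of fat storage and breakdown 5 were higher and 7 lower. HILPDA, a hypoxia-induced inhibitor of fat breakdown, rose from 155 ± 22.1 to 781 ± 85.1 CPM (log2 difference 2.33 ± 0.11, adjusted p = 2.28e-11) and the droplet coat protein PLIN2 from 4.47 ± 0.573 to 15.3 ± 1.93 CPM (log2 difference 1.77 ± 0.19, adjusted p = 4.82e-07). Diacylglycerol acyltransferase DGAT2 rose by 1.28, and the cholesterol exporters parted, ABCG1 up (1.28) and ABCA1 down (-2.51).

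Cell division lists had the lowest medians of the 56 gene lists. All 30 tested genes of mitotic entry and exit were lower, with a median of -1.94 that stayed between -2.01 and -1.87 over the alternative settings. MKI67, the standard proliferation marker (chromosome 10, 128096659 to 128126423), stood at 191, 185 and 196 CPM in monolayer 1, 2 and 3 and 28.6, 35 and 31.8 in large spheroid 1, 2 and 3 (log2 difference -2.58 ± 0.11, adjusted p = 1.24e-11). Topoisomerase TOP2A stood at 572, 588 and 609 CPM in monolayer 1, 2 and 3 and 107, 119 and 138 in large spheroid 1, 2 and 3 (log2 difference -2.28 ± 0.10, adjusted p = 1.56e-11). FOXM1, which drives the late cell cycle programme, fell from 74.5 ± 2.23 to 13.5 ± 1.46 CPM, and CDK1 and its partner cyclins CCNB1 and CCNB2 fell by 1.97, 2.04 and 2.12 on the log2 scale. HMMR, a spindle protein that binds hyaluronan, fell most of the list, from 45.6 ± 0.211 to 4.87 ± 0.268 CPM (log2 difference -3.23 ± 0.10, adjusted p = 9.22e-13). Of the complex that represses these genes in resting cells and activates them in cycling cells, LIN9 and LIN54 fell by 1.16 and 1.42 and LIN37 by less (0.38).

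Kinesins are the motors of both the spindle and the transport of cargo. All 13 mitotic kinesins were lower (median -2.11), while of 15 kinesin genes of intracellular transport 6 were lower and 3 higher (median -0.07). KIF14, which acts in cytokinesis, stood at 46, 45.6 and 47.2 CPM in monolayer 1, 2 and 3 and 3.94, 4.71 and 4.2 in large spheroid 1, 2 and 3 (log2 difference -3.43 ± 0.11, adjusted p = 9.22e-13), and KIF20A, of the midzone, at 49.1, 49.1 and 51.1 CPM in monolayer 1, 2 and 3 and 8.05, 8.57 and 8.85 in large spheroid 1, 2 and 3 (log2 difference -2.55 ± 0.09, adjusted p = 1.05e-12). KIF22 fell least, by 0.90. The transport motor KIF21B rose from 2.81 ± 0.578 to 9.41 ± 0.92 CPM. Of 27 centromere and kinetochore genes 25 were lower and none higher, from KNL1 (from 67.5 ± 3.24 to 8.28 ± 2.49 CPM) and CENPF (from 178 ± 5.91 to 36.7 ± 5.24 CPM) to DSN1 (-0.66), and MIS12 (0.07) and CENPM (-0.39) did not pass.

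The stretches before 4 mitotic genes are shown for the motifs their class is known for, with CCAAT (or ATTGG on the other strand) and TTTGAA in capitals and the last base directly before the annotated start.
CCNB2 (chr15:59105006-59105145, plus strand): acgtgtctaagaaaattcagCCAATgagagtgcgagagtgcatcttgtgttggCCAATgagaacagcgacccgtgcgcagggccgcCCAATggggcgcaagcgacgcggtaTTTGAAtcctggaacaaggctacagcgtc
PLK1 (chr16:23678769-23678888, plus strand): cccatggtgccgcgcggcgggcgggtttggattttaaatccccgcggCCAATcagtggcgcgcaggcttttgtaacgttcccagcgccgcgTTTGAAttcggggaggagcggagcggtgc
HMMR (chr5:163460442-163460631, plus strand): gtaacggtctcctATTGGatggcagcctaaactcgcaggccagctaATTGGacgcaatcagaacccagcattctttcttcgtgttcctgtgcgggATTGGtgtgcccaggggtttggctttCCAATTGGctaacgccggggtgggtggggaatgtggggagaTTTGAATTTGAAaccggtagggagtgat
KIF20A (chr5:138178992-138179111, plus strand): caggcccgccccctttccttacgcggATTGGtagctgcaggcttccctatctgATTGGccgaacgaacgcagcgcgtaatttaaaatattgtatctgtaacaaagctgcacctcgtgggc
CCNB2, PLK1 and HMMR hold TTTGAA with its first base 28 or 29 bases before the start, HMMR a second copy at 22, and KIF20A holds 2 CCAAT boxes and no cell cycle homology region in the 250 bases searched. Of the 60 mitotic and kinetochore members with a promoter in the table, 42 (70.0%) held CCAAT on either strand and 26 (43.3%) held TTTGAA or TTCGAA. Among all promoters the shares were 33.0% and 14.6%, and among those of tested genes 34.9% and 9.8%. Of 52 replication and repair members 26 held CCAAT and 3 the homology region.

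DNA replication genes were also lower, with smaller values. Of the list 31 of 35 genes were lower and 2 higher, with a median of -0.78. Origin recognition and licensing factors ORC1, CDT1 and CDC6 fell from 9.45 ± 0.886 to 2.14 ± 0.0672 CPM, from 13.1 ± 1.56 to 4.54 ± 0.747 CPM and from 232 ± 14.3 to 97.9 ± 11.8 CPM. The MCM helicase itself moved little: MCM2, MCM4, MCM5 and MCM7 fell by 0.55, 0.46, 0.57 and 0.51, and MCM3 rose, at 29.1, 29.2 and 30.3 CPM in monolayer 1, 2 and 3 and 42.7, 42.4 and 43.7 in large spheroid 1, 2 and 3 (log2 difference 0.54 ± 0.08, adjusted p = 1.28e-05). RRM2, the regulated subunit of ribonucleotide reductase, fell from 80.8 ± 4.83 to 24 ± 0.954 CPM and the main subunit RRM1 by 0.56. Thymidine kinase TK1 fell by 1.16, while DUT rose (0.55). Of 24 genes of homologous recombination and Fanconi repair 23 were lower and only PALB2 (0.10) did not pass. BRCA2 stood at 22.3, 24.7 and 19.2 CPM in monolayer 1, 2 and 3 and 3.71, 5.16 and 4.83 in large spheroid 1, 2 and 3 (log2 difference -2.27 ± 0.18, adjusted p = 1.14e-08), and BRCA1 fell by 1.80.

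**Figure D4:**
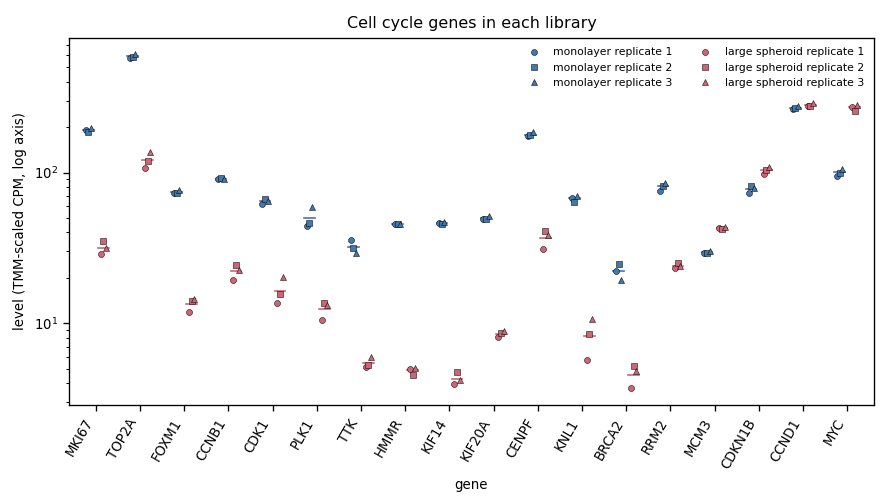
Level of 18 cell cycle genes in each library (vertical axis, TMM-scaled CPM, log axis; blue monolayer, red large spheroid, symbols for replicates 1 to 3, short lines the means). From MKI67 to RRM2 every large spheroid library lies below every monolayer library, while MCM3, CDKN1B and MYC lie above and CCND1 changes by 0.05 on the log2 scale without being called.

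Entry into the cycle was not lower at every step. Cyclin D1 (CCND1) stood at 265, 269 and 276 CPM in monolayer 1, 2 and 3 and 274, 275 and 289.7 in large spheroid 1, 2 and 3 and was not called. CDK6 and CDK4 rose by 0.79 and 0.40, and CDK2 and CCNE2 fell by 0.80 and 0.94. E2F1, the activating factor of G1/S genes, fell from 22 ± 0.437 to 9.36 ± 0.27 CPM (log2 difference -1.23 ± 0.11, adjusted p = 5.35e-08) and E2F7, a repressor that is itself a cell cycle gene, from 9.19 ± 0.54 to 2.33 ± 0.368 CPM. RB1 fell from 89.3 ± 2.03 to 45.7 ± 6.77 CPM and its quiescence-associated relative RBL2 rose from 74.3 ± 3.93 to 103 ± 2.87 CPM. Among the 8 inhibitors of cyclin-dependent kinases, CDKN1B (p27), a marker of quiescence, rose from 78.3 ± 4.38 to 104 ± 5.3 CPM (log2 difference 0.40 ± 0.08, adjusted p = 0.000233) and CDKN1C rose from 0.506 ± 0.0455 to 1.47 ± 0.364 CPM. CDKN1A (p21) did not pass (log2 difference -0.37 ± 0.19, adjusted p = 0.115) and CDKN2D and CDKN3 fell by 1.62 and 1.64. Of 18 p53 targets 10 were lower and 5 higher, with GADD45A (from 18.7 ± 0.489 to 63.2 ± 0.604 CPM) and BBC3 (from 6.65 ± 0.697 to 19.4 ± 3.31 CPM) up and TP53INP1 down from 12.9 ± 2.01 to 4.84 ± 0.41 CPM.

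Among ERBB receptors EGFR rose and ERBB2 was slightly lower, a call that ended without replicate 3 of either format. EGFR (chromosome 7, 55019017 to 55211628) stood at 82.7, 85.4 and 88.2 CPM in monolayer 1, 2 and 3 and 302, 316 and 306 in large spheroid 1, 2 and 3 (log2 difference 1.85 ± 0.10, adjusted p = 1.87e-10). ERBB2 (chromosome 17, 39688094 to 39728658), the amplified receptor and the target of trastuzumab, stood at 7460.5, 7345 and 8146 CPM in monolayer 1, 2 and 3 and 6531, 6074 and 5585 in large spheroid 1, 2 and 3 (log2 difference -0.34 ± 0.11, adjusted p = 0.0144). Large spheroid 3 was the lowest and monolayer 3 the highest of the 6, and the call of ERBB2 ended without either of them. ERBB3 rose by 0.27, and ERBB4 fell at a low level, from 1.76 ± 0.288 to 0.908 ± 0.15 CPM, a call that ended without replicate 3 of both formats. ERRFI1, a feedback inhibitor that binds active EGFR and HER2, rose from 32.2 ± 3.1 to 108 ± 8.44 CPM (log2 difference 1.74 ± 0.14, adjusted p = 1.21e-08), the ligand HBEGF rose from 2.93 ± 0.294 to 6.73 ± 0.76 CPM, and the guanine exchange factor SOS1, which links the receptors to RAS, fell from 375 ± 17.1 to 134 ± 4.3 CPM (log2 difference -1.49 ± 0.08, adjusted p = 1.76e-10). GRB7, a neighbour of ERBB2 on the amplicon, was not called (0.06).

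Genes downstream of ERK and the immediate early factors were mostly higher. Of 20 feedback genes and ETS targets 11 rose and 2 fell. The ETS factor ETV4 stood at 5.31, 5.93 and 4.73 CPM in monolayer 1, 2 and 3 and 48, 46.5 and 42.8 in large spheroid 1, 2 and 3 (log2 difference 3.10 ± 0.10, adjusted p = 9.22e-13), while ETV1 (-0.84) and ETV5 (-0.93) did not pass, at means of 1.21 and 1.02 CPM in large spheroid. The phosphatases DUSP5 and DUSP6, which switch off ERK, rose from 11.2 ± 2.21 to 53.7 ± 4.17 CPM and from 6.01 ± 2.03 to 14.9 ± 2.8 CPM, and the RAS-ERK inhibitor SPRED1 from 15.5 ± 1.49 to 47.8 ± 3.7 CPM. The AP-1 factor FOS stood at 2.38, 3.69 and 2.66 CPM in monolayer 1, 2 and 3 and 51.3, 49.1 and 39.7 in large spheroid 1, 2 and 3 (log2 difference 3.98 ± 0.16, adjusted p = 6.55e-12), JUN rose from 52.6 ± 2.93 to 135 ± 4.87 CPM and EGR1 from 15.2 ± 0.552 to 56.4 ± 6.01 CPM. NR4A3 was the one immediate early factor of 18 that fell, from 18.4 ± 1.5 to 8.85 ± 0.751 CPM, and 14 rose. Among Kruppel-like factors KLF11 rose the most, from 5.42 ± 0.798 to 52.5 ± 3.01 CPM (log2 difference 3.28 ± 0.11, adjusted p = 9.22e-13), and KLF10, its close relative and like it induced by TGF-beta, fell from 57.7 ± 1.7 to 34.3 ± 1.72 CPM (log2 difference -0.75 ± 0.09, adjusted p = 2.74e-06).

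On the PI3K and insulin side 18 of 39 genes were higher and 10 lower, with several negative regulators among the higher. PIK3IP1, an inhibitor of the PI3K catalytic subunit, rose from 7.06 ± 1.08 to 23.1 ± 1.64 CPM (log2 difference 1.70 ± 0.15, adjusted p = 3.84e-08). The regulatory subunit PIK3R1, the lipid phosphatase INPP4B and the mTOR inhibitor DEPTOR rose by 1.28, 1.21 and 0.99. MTOR itself fell (-0.53), and the adaptor GRB10, which dampens insulin receptor signalling, rose from 6.44 ± 0.95 to 22.3 ± 1.61 CPM. IRS1, IRS2 and IGF1R rose by 0.92, 0.97 and 0.66, with the call of IRS2 lost without monolayer 3. FOXO3 rose from 25.8 ± 1.39 to 49.2 ± 1.03 CPM and FOXO1 fell from 34.4 ± 1.83 to 21.3 ± 0.634 CPM. Of 17 FOXO factors and targets 9 were higher and 5 lower.

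**Figure D5:**
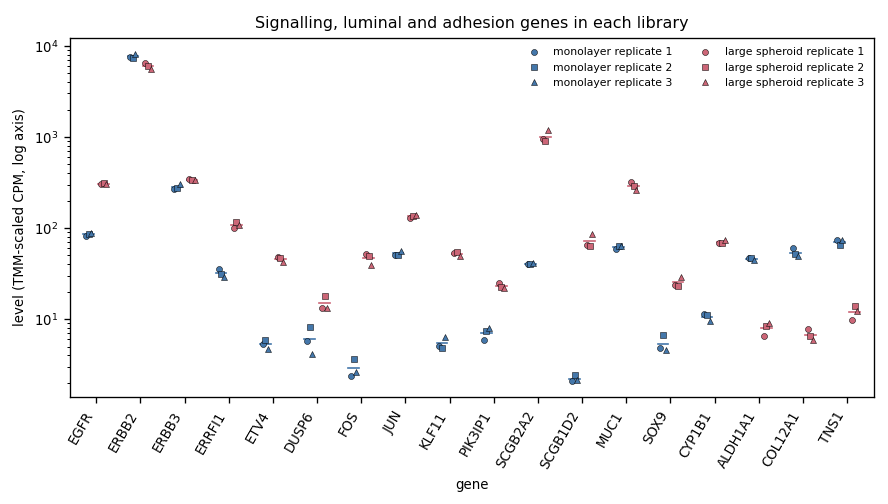
Level of 18 signalling, luminal and adhesion genes in each library (vertical axis, TMM-scaled CPM, log axis; blue monolayer, red large spheroid, symbols for replicates 1 to 3, short lines the means). The formats do not overlap for any of the 18 genes, with ERBB2, ALDH1A1, COL12A1 and TNS1 lower in large spheroid and the other 14 higher.

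Secreted products of luminal breast cells were among the largest rises. Of 17 luminal secretory genes 14 were higher and none lower (median 1.32). Mammaglobin A (SCGB2A2, chromosome 11, 62270158 to 62273160) stood at 40.6, 40.2 and 41.6 CPM in monolayer 1, 2 and 3 and 951, 899 and 1181 in large spheroid 1, 2 and 3 (log2 difference 4.63 ± 0.15, adjusted p = 9.22e-13), and its partner SCGB1D2 at 2.1, 2.42 and 2.16 CPM in monolayer 1, 2 and 3 and 65.6, 63.2 and 85.7 in large spheroid 1, 2 and 3. The third secretoglobin of that cluster, SCGB2A1, rose from 1.15 ± 0.297 to 14.9 ± 2.81 CPM, and bile salt-stimulated lipase CEL, a milk enzyme, from 0.535 ± 0.0745 to 16 ± 0.654 CPM (log2 difference 4.89 ± 0.24, adjusted p = 5.49e-11). The mucin MUC1 rose from 62.6 ± 2.91 to 292 ± 29.6 CPM and AZGP1, a secreted zinc glycoprotein, from 319.9 ± 7.64 to 759.9 ± 48.9 CPM. CLU, APOD and TFF1 did not pass. Of 26 luminal and epithelial factors 8 were higher and 10 lower. ELF3 and ELF5 rose from 256 ± 13.8 to 639 ± 15.4 CPM and from 3.34 ± 0.208 to 8.87 ± 0.692 CPM, SOX9 rose from 5.38 ± 1.14 to 25.3 ± 3.2 CPM (log2 difference 2.22 ± 0.18, adjusted p = 2.19e-08), FOXA1 rose by 0.39, and GATA3 fell from 8.07 ± 0.606 to 3.89 ± 0.561 CPM. ESR1, the oestrogen receptor, was read at 1.82, 1.15 and 1.7 CPM in monolayer 1, 2 and 3 and 0.637, 0.902 and 0.575 in large spheroid 1, 2 and 3, a low level at which its call as lower ended without monolayer 1 or 3 or large spheroid 1 or 3.

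Keratins, the intermediate filaments of epithelium, moved both ways, 10 of 16 higher and 5 lower. KRT8 fell from 2143 ± 94.9 to 1331 ± 97.9 CPM (log2 difference -0.69 ± 0.09, adjusted p = 4.69e-06), KRT18 was lower by a margin that did not hold when single libraries were left out (log2 difference -0.19 ± 0.07, adjusted p = 0.0226), and KRT19 rose from 1811 ± 125 to 2918 ± 136 CPM. KRT80 rose from 56.7 ± 2.4 to 183 ± 4.92 CPM (log2 difference 1.69 ± 0.08, adjusted p = 3.26e-11), KRT10 from 26.3 ± 2.65 to 93.3 ± 25.9 CPM and KRT23 from 0.729 ± 0.0745 to 5.07 ± 0.65 CPM. The hair keratins KRT81 and KRT86 rose by 0.81 and 1.48, but they are near copies of each other, so the split of reads between them is uncertain. KRT13 fell from 3.17 ± 0.243 to 0.42 ± 0.12 CPM.

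Cell contact genes were mixed, with 13 of 31 higher, 4 lower and 14 not called. Their median was 0.10, and 0.02 with the GC and length correction. Of 9 adherens junction genes 1 was higher, 1 lower and 7 not called. Desmosome genes were higher in 4 of 5 and lower in 1. The plaque protein PKP2 stood at 26.4, 23.6 and 26 CPM in monolayer 1, 2 and 3 and 93, 100.03 and 101 in large spheroid 1, 2 and 3 (log2 difference 1.95 ± 0.10, adjusted p = 7.35e-11). DSP, which ties keratins to the desmosome, rose from 286 ± 3.13 to 446 ± 29.6 CPM. Of 17 tight junction genes 8 were higher and 2 lower, with log2 values from -0.58 to 3.04. EPCAM rose from 125 ± 5.13 to 232 ± 9.32 CPM and OCLN from 31 ± 2.52 to 42.4 ± 5.21 CPM. The scaffold TJP1 fell from 140.2 ± 4.13 to 93.9 ± 5.57 CPM. E-cadherin (CDH1), the defining adherens junction protein of most epithelia, stood at 0.608, 1.81 and 1.38 CPM in monolayer 1, 2 and 3 and 1.16, 1.2 and 0.632 in large spheroid 1, 2 and 3, near the lower limit of the data, and was not called. Its catenin partners CTNNB1 (0.13) and CTNNA1 (-0.14) did not pass either.

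Integrins and the cytoskeleton changed gene by gene. Fibronectin receptor subunit ITGA5 rose from 10.2 ± 1.18 to 32.9 ± 0.646 CPM (log2 difference 1.69 ± 0.12, adjusted p = 3e-09) and the heparan sulfate receptor SDC4 from 67.5 ± 2.01 to 162 ± 6.07 CPM, while ITGAV and ITGA1 fell by 0.64 and 1.03. ITGB1, their common partner, was not called (-0.27). Of 41 actin and focal adhesion genes 15 rose and 9 fell. The crosslinker FLNA rose from 189 ± 2.04 to 409.8 ± 22 CPM and TAGLN2 from 209 ± 13 to 480.0 ± 23.5 CPM. Tensins went down, TNS1 from 70.9 ± 4.92 to 11.9 ± 2.01 CPM (log2 difference -2.57 ± 0.15, adjusted p = 4.85e-10) and TNS4 from 322 ± 13 to 164 ± 7.39 CPM, and vinculin (VCL) fell by 0.56. TEAD1, a DNA-binding partner of YAP, fell from 195 ± 10.04 to 56.4 ± 2.69 CPM (log2 difference -1.79 ± 0.08, adjusted p = 1.24e-11) and TEAD4 rose from 20.2 ± 1.71 to 49.2 ± 4.27 CPM. The YAP targets CCN1 and CCN2, which are also immediate early genes, rose from 39 ± 2.78 to 84.3 ± 4.94 CPM and from 6.14 ± 0.897 to 23.5 ± 1.58 CPM, whereas F3 and FSTL1 fell (-1.05 and -0.88).

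Matrix genes were low overall and moved both ways. COL12A1, a collagen that decorates fibrils, stood at 59.97, 52 and 48.8 CPM in monolayer 1, 2 and 3 and 7.88, 6.46 and 5.98 in large spheroid 1, 2 and 3 (log2 difference -2.98 ± 0.14, adjusted p = 2.44e-11). COL17A1 and COL7A1, of hemidesmosomes and anchoring fibrils, rose from 0.283 ± 0.0544 to 3.81 ± 0.713 CPM and from 3.65 ± 0.0277 to 14 ± 4.11 CPM, and fibronectin FN1 rose from 34.1 ± 5.31 to 54.7 ± 3.19 CPM. LAMA3 fell by 1.23 and LAMB3, its partner in laminin-332, rose by 0.41. SPARC fell from 10.2 ± 5.03 to 2.52 ± 1.41 CPM and COL1A1 from 8.36 ± 0.336 to 5.73 ± 1.39 CPM. Both are on the mesenchymal marker list, whose summed level was 89.7 to 163 CPM in monolayer and 56.6 to 102 in large spheroid. In the TGF-beta and BMP list 11 of 23 genes rose and 4 fell. The ligands BMP7 (from 7.9 ± 1.2 to 25.5 ± 1.998 CPM) and TGFB3 (from 91.1 ± 3.73 to 177 ± 1.82 CPM) were among those that rose. The receptors TGFBR1 and BMPR2 fell by 0.68 and 0.81.

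Interferon and NF-kB genes were read as signs of innate immune signalling. Of 25 tested interferon effectors 12 were lower and 5 higher. SAMD9 fell from 29.6 ± 2.7 to 5.66 ± 0.974 CPM (log2 difference -2.39 ± 0.16, adjusted p = 2.36e-09) and MX1 from 9.09 ± 2.21 to 3.89 ± 0.599 CPM, while DTX3L rose from 17 ± 0.721 to 32.6 ± 0.968 CPM. IFI27 stood at 3.48, 7.2 and 1.47 CPM in monolayer 1, 2 and 3 and 0.29, 0.401 and 0.23 in large spheroid 1, 2 and 3 (log2 difference -3.69 ± 0.55, adjusted p = 2.18e-05), and its fold change was -2.95 without monolayer 2. The interferon signalling factor STAT2 fell by 0.59. Of 14 NF-kB genes 8 rose and 2 fell, with the factor RELB up from 6.9 ± 1.14 to 13.9 ± 1.07 CPM and REL down from 55.7 ± 2.91 to 31.7 ± 2.99 CPM. The MHC class I gene HLA-C, which resembles other genes of its class, gave -2.40 (-1.67 without monolayer 2), and B2M, the class I light chain, was level (0.02).

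Retinoid and aryl hydrocarbon genes, which both read small ligands, included several strong single changes. CYP1A1, the classic target of the aryl hydrocarbon receptor, stood at 1.88, 2.08 and 2.25 CPM in monolayer 1, 2 and 3 and 28.6, 25.1 and 25.6 in large spheroid 1, 2 and 3 (log2 difference 3.66 ± 0.22, adjusted p = 5.28e-10). CYP1B1, another, stood at 11.3, 11 and 9.46 CPM in monolayer 1, 2 and 3 and 69.3, 68.6 and 73.9 in large spheroid 1, 2 and 3 (log2 difference 2.73 ± 0.22, adjusted p = 1.42e-08). The receptor AHR (0.19) and its target TIPARP (0.27) did not pass, with 0.42 and 0.35 after the GC and length correction. Each was called higher under at least 1 alternative setting. The retinoic acid receptor RARA rose from 140.3 ± 7.87 to 332 ± 6.86 CPM (log2 difference 1.24 ± 0.11, adjusted p = 6.45e-08), while ALDH1A1, an enzyme that makes retinoic acid, fell from 46 ± 1.65 to 8.02 ± 1.33 CPM (log2 difference -2.52 ± 0.17, adjusted p = 2.72e-09) and the retinol dehydrogenase RDH10 from 185 ± 3.17 to 94.3 ± 3.36 CPM. Of the drug and lipid pumps 10 of 18 were lower and 5 higher. The apocrine transporter ABCC11 fell from 32.4 ± 3.07 to 6.62 ± 0.84 CPM (log2 difference -2.29 ± 0.12, adjusted p = 8.43e-11). ABCG2 fell by 1.14 and ABCA3 rose by 1.26. ABCB1, the classic multidrug pump, was read at 0.774, 1.001 and 0.597 CPM in monolayer 1, 2 and 3 and 0.927, 0.902 and 0.402 in large spheroid 1, 2 and 3 and was not called.

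Histone genes were divided, 7 higher and 6 lower of 24. H2AZ1, a variant made through the cycle, fell from 235 ± 7.01 to 161 ± 10.2 CPM, and the linker histone H1-10 rose from 7.92 ± 1.08 to 27.1 ± 6.6 CPM. The replication-dependent genes resemble each other and their messages lack long poly(A) tails, so single values are uncertain. Of 13 calcium-binding S100 genes 5 were higher, S100A6 by 0.66, and 3 lower.

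Clock and survival genes also held changes of size. In the clock list 9 of 18 genes rose and 4 fell. NPAS2 (from 5.13 ± 0.967 to 22.7 ± 1.31 CPM) and NR1D1 (from 18.5 ± 0.558 to 45.2 ± 2.17 CPM) were among those that rose. CLOCK and NR1D2 fell from 126 ± 6.31 to 71.7 ± 3.78 CPM and from 107 ± 5.29 to 67 ± 4.26 CPM. The BCL2 family had 9 of 13 members higher and 2 lower. Higher were the pro-apoptotic PMAIP1 (from 3.72 ± 0.07999 to 12.6 ± 0.885 CPM) and BIK (from 3.69 ± 0.617 to 7.81 ± 0.913 CPM) and the pro-survival MCL1 (from 376 ± 7.13 to 521 ± 15.7 CPM), among others. BMF fell from 20.8 ± 2.53 to 12 ± 1.46 CPM.

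Of the genes outside these lists, the largest changes lay in unrelated classes. PPFIA4, a liprin scaffold reported to respond to hypoxia, stood at 1.16, 1.001 and 0.964 CPM in monolayer 1, 2 and 3 and 42.4, 43.8 and 32.2 in large spheroid 1, 2 and 3 (log2 difference 5.25 ± 0.18, adjusted p = 9.22e-13). The orphan receptor GPRC5C rose from 1.25 ± 0.167 to 21.6 ± 0.72 CPM, the cyclooxygenase PTGS1 from 11.7 ± 0.408 to 187 ± 1.68 CPM, neuroserpin (SERPINI1) from 3.07 ± 0.485 to 46 ± 4.24 CPM and PKIA, an inhibitor of protein kinase A, from 2.71 ± 0.219 to 36.7 ± 4.7 CPM. In the other direction DIO2, which activates thyroid hormone, stood at 29.3, 23.9 and 22.4 CPM in monolayer 1, 2 and 3 and 1.39, 2.1 and 1.55 in large spheroid 1, 2 and 3 (log2 difference -3.88 ± 0.26, adjusted p = 2.42e-09). The synaptic vesicle protein SYP fell from 12.9 ± 1.26 to 1.46 ± 0.252 CPM, the connexin GJA5 from 194 ± 13.2 to 25 ± 1.31 CPM, the GABA receptor subunit GABRE from 125 ± 5.73 to 17.7 ± 5.12 CPM, the retinol carrier RBP4 from 13.6 ± 0.436 to 1.92 ± 0.515 CPM and WIPF1, a partner of the actin regulator WASP, from 13.6 ± 0.952 to 1.998 ± 0.0385 CPM. The formats did not overlap for these genes. KDR, the VEGFA receptor of endothelium and on that marker list, was read at 0.332, 0.577 and 0 CPM in monolayer 1, 2 and 3 and 9.62, 9.17 and 7.07 in large spheroid 1, 2 and 3, while the summed level of that list stayed between 28.6 and 39.6 CPM.

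Spheroid size was examined by the test of large against small spheroid in the same fit, which called 10064 genes (66.3%). Fold changes of that contrast followed GC content across genes (Spearman rho -0.657, against 0.189 for large spheroid and monolayer, over 14638 genes that are not independent), so the value after a GC and length correction is given beside each. P4HA1 stood at 397 ± 52.2 CPM in small spheroids and was higher in large ones by 1.72 ± 0.11 (corrected 1.20), ERO1A at 161 ± 4.07 CPM and higher by 1.75 ± 0.07 (corrected 1.08). ADM and SLC2A3 were higher in large than in small spheroids by 2.08 ± 0.13 (corrected 2.60) and 3.05 ± 0.23 (corrected 2.78). CA9 was not called between the sizes, and its log2 difference changed sign with the correction, from -0.30 ± 0.19 to 0.32. NDRG1 (0.17 ± 0.11) and SLC2A1 (0.04 ± 0.10) were not called either, but with the correction both were called higher in large spheroids, by 0.31 (adjusted p = 0.0107) and 0.34 (adjusted p = 0.000663). MKI67 stood at 84.5 ± 1.4 CPM in small spheroids, and was lower in large ones (log2 difference -1.41 ± 0.11, corrected -1.66), as were PLK1 at -1.99 ± 0.16 (corrected -1.56) and E2F1 at -2.17 ± 0.11 (corrected -1.43). OGDHL stood at 28.7 ± 2.49 CPM, with -2.95 ± 0.13 (corrected -2.44) between sizes. SCGB2A2, SCGB1D2 and CYP1A1, all higher in large spheroid than in monolayer, were lower in large than in small spheroids. Their log2 differences between sizes were -0.83 ± 0.13 (corrected -1.19), -0.76 ± 0.15 (corrected -0.65) and -1.56 ± 0.17 (corrected -1.34). PGK1 and LDHA were called higher in large than in small spheroids, by 0.56 ± 0.10 (corrected 0.13) and 0.45 ± 0.13 (corrected 0.12). With the correction neither was called. ERBB2 stood at 11531 ± 277 CPM in small spheroids, with -0.93 ± 0.11 (corrected -0.49) between large and small. Its log2 difference between small spheroid and monolayer was 0.59, and 0.08 with the correction. RBP4 stood at 49 ± 9.49 CPM in small spheroids and was called higher there than in monolayer (1.85 ± 0.13). Between the sizes RBP4 gave -4.66 ± 0.17 (corrected -4.16).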

How the data were processed

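RNA of AU565 cultures was sequenced from TruSeq libraries, and the authors deposited raw counts per gene for 12 libraries in 1 table, with featureCounts, limma and build hg38 named in the submitters' processing notes and subread per the file headers. Their versions, the annotation and the strand setting were not given in the sources used here. That table had 16020 rows, of which 164 without a symbol held 0.0705% of the counts, and had been filtered before deposit, since the second-highest CPM of any gene was at least 0.501.

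Counts were fitted in edgeR 4.0.16 (R 4.3.3) with 1 mean per format, TMM scaling and filterByExpr (minimum count 10), which left 15175 genes. Large spheroid was tested against monolayer and against small spheroid by edgeR's quasi-likelihood F test, two-sided, with Benjamini-Hochberg adjustment over all 15175 genes at 0.05, and that is the test behind each adjusted p. Levels are TMM-scaled CPM computed from the counts, given as mean ± SD over 3 libraries. Fold changes carry the SE of the fit. The fit was tested on simulated data. GC content and length came from the longest GENCODE transcript of each gene, for 14638 tested genes. By gene identifier, 15851 rows (98.9%) matched RefSeq, which gave the gene positions.

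Alternatives were library totals, DESeq2 1.42.0 size factors and Wald test, limma-voom (limma 3.58.1), no filter, the 2 formats alone, a replicate block, a GC and length correction (loess span 0.5), and leaving out each library of the 2 formats compared, beside 3 settings added after seeing the data. Replicate numbers were not taken as pairs.

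The 56 gene lists, the marker lists and the naming rule were chosen with earlier results of these data known. The rule took the 15 highest and 15 lowest fold changes among called genes at 10 CPM or more without overlap, and of each list its anchors, the 3 smallest adjusted p in the main direction and the 1 smallest in the other. Of 322 genes named in the text 113 lie outside it and were chosen after their values were seen: ABCA1, ABCG2, ACAT2, ALDOA, APOD, ARNT2, ATF3, ATP6, ATP6V1H, BRCA2, CA12, CBS, CCNB2, CD68, CDC6, CDH1, CDH5, CDK2, CDK4, CDK6, CDKN1A, CDKN2D, CDT1, CENPM, CLU, COL1A1, COL7A1, CSF1R, CTNNA1, DEPTOR, DGAT2, DKC1, DSN1, DUT, EDN1, EGFL7, EGLN1, EGLN2, ELF5, ERBB4, ERG, ERO1B, ESR1, ETV1, F3, FASN, FOXO1, FSTL1, GINS2, GRB7, HIF1AN, HK1, HSP90AA1, HSPA1B, IDH1, IDI1, IGF1R, IGFBP3, INPP4B, IRS1, ITGAV, ITGB1, KDM7A, KDR, KIF1A, KIF22, KRT10, KRT13, LDHB, LIN37, LIN54, LIN9, MCM4, MCM5, MCM7, MIS12, MTOR, MUC1, MX1, ND5, NPAS2, NR1D1, NR1D2, OGDH, P4HB, PALB2, PDK2, PDK3, PDK4, PGF, PIK3IP1, PIK3R1, PSPH, RB1, RDH10, RPL19, RPS10, RPS14, RRM1, SOX9, SPARC, STAT2, STC1, STC2, TFF1, TGFB2, TGFBR1, TIPARP, TK1, TNS4, VEGFB, VHL, VWF. Some genes the rule took are not reported here.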

Additional observations from a re-analysis of the deposited data

Results flagged for a closer look

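The same contrast with monolayer can be read in both spheroid sizes. Described here are 8 list genes called in opposite directions in large and small spheroids, with a called difference of at least 2-fold between the sizes. They were picked out of 101 genes with opposite calls and a called difference between the sizes, among the 1259 list genes tested. The share of such genes over all genes tested was not computed. Of the 101 genes, 51 kept the opposite directions with the GC and length correction. From these the 8 were selected for at least 0.5 each way and at least 2-fold between the sizes with that correction. Holding under the correction was thus a condition of the selection and no check on the 8. The minimums were chosen after the data were seen. All log2 values here are differences with SE, and the value after the GC and length correction is given beside each.

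ASNS, asparagine synthetase, was higher in large spheroid and lower in small spheroid, with a size difference of 1.37 ± 0.11 (corrected 1.22). TGFB2, a TGF-beta ligand, did the same (2.10 ± 0.12, corrected 1.44), at 5.69 ± 0.093 CPM in small and 24.4 CPM in large spheroids. The other 6 were lower in large and higher in small spheroids than in monolayer. COL1A1, the main chain of type I collagen and a mesenchymal marker, stood at 25.3 ± 1.22 CPM in small spheroids (-2.14 ± 0.14, corrected -1.48). ERBB4, the HER family receptor for neuregulins, stood at 3.14 ± 0.394 CPM in small spheroids (-1.77 ± 0.28, corrected -2.51). GINS2, of the replicative helicase, gave -1.50 ± 0.20 (corrected -1.53). KIF1A, an axonal transport motor, gave -4.47 ± 0.58 (corrected -3.88), fitted values that rest on few reads and are no bound. KIF1A stood at 0.232, 0.15 and 0 CPM in large spheroid 1, 2 and 3 and 3.002 ± 0.595 CPM in small spheroids. ATP8, a mitochondrially encoded subunit of ATP synthase that overlaps ATP6, gave -1.94 ± 0.10 (corrected -2.26). RPS10 of the small ribosomal subunit gave -1.16 ± 0.20 (corrected -1.22), and its pseudogene copies make both values uncertain.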

How the results depend on the processing

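The count of called genes for large spheroid against monolayer (8669) stayed within 1.5 times under every alternative but 1, which was added after seeing the data: with replicates 1 and 2 of both formats left out, 3516 genes were called, a setting in which each format has 1 library and is assumed to vary like the other formats. Leaving out 1 library of the 2 formats compared at a time gave 7715 to 8235 genes, and 9296 to 9637 against small spheroid (10064). The replicate block gave 8399 and 9873. Same-numbered monolayer and large spheroid libraries correlated at 0.089, 0.154 and 0.217 in their deviations from the format means. Each large spheroid library correlated best with the monolayer library of its own number, a hint from the data and not from the design. The block ended no call of a gene named in the text. The GC and length correction gave 9117 and 7596 genes, library totals 8697 and 10118, with 46.4% and 56.7% of the calls higher against 50.2% and 49.6%. Without replicate 3 of both formats 7605 genes were called, and without capsule replicate 1 9896 and 10866, the last 2 settings also added after seeing the data.

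Of 297 called genes named in the text, 232 kept their direction and call under every alternative, and 65 lost the call under at least 1. With replicate 3 alone 64 lost it, 8 of them also under another alternative, and 1 lost it only under another. No gene named reversed. Of the 25 genes named in the text that were not called, 11 were called in the same direction under at least 1 alternative. The GC and length correction moved the log2 difference of 16 called genes named in the text by over 1.5 times, to the values given with each: BBC3 (0.92), BMPR2 (-0.50), CLOCK (-0.50), EGFL7 (-1.09), H1-10 (1.17), HSF1 (0.18), ITGAV (-0.40), KDM7A (0.84), KRT18 (-0.29), KRT19 (0.45), NDUFS1 (-0.46), REL (-0.52), SLC16A3 (0.10), TET2 (-0.20), UTP20 (-0.39) and VEGFB (0.41). Of the 56 lists, 49 had a median that moved by more than 1 SD under at least 1 alternative. That SD is the spread of the list's median between libraries of a format. With the GC and length correction 22 moved so, and with library totals 17. The medians of 6 lists changed sign between settings: mitophagy and autophagy, nuclear respiratory chain, histones, interferon-stimulated genes, YAP-TEAD and Hippo, and matrix proteins. The cause was not tested.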
